A study of Mus musculus with 29 samples.

Results

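The 10 genes described here are core regulators of the G1 phase of the cell cycle: the D-type cyclins Ccnd1, Ccnd2 and Ccnd3, their kinase partners Cdk4 and Cdk6, the Cip/Kip inhibitors Cdkn1b (p27Kip1) and Cdkn1c (p57Kip2), and the INK4 inhibitors Cdkn2a (p16Ink4a, with p19Arf from the same locus), Cdkn2b (p15Ink4b) and Cdkn2c (p18Ink4c). They were taken by name as members of these families, with earlier results of these data known. They are 10 of the 50233 gene identifiers in the count tables, and 8 of them passed the filter on low counts in the pallium, while Cdkn2a and Cdkn2b did not.

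D-type cyclins are the cyclins that respond to mitogens and other signals from outside the cell. They bind CDK4 or CDK6, and the active kinase phosphorylates the retinoblastoma family of pocket proteins, which releases E2F factors and lets the cell enter S phase. INK4 proteins bind CDK4 and CDK6 and keep D cyclins off them, whereas Cip/Kip proteins bind cyclin-CDK complexes more broadly. In the developing cortex these genes are known for setting the length of G1 in radial glia and for cell-cycle exit of new neurons. Cdkn2a and Cdkn2b are textbook targets of Polycomb repression, whose mark is the trimethylation of histone H3 at lysine 27 (H3K27me3).

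The study asked what the chromatin-remodelling BAF complexes do in late cortical neural stem cells, by deleting the scaffold subunits BAF155 (gene Smarcc1) and BAF170 (gene Smarcc2) with hGFAP-Cre, a transgene active in late pallial progenitors. The deletion therefore starts in progenitors and spares cells born before, interneurons that migrate in, vessels and microglia, all of which remain in the dissected tissue. RNA was sequenced in 2 experiments on embryonic pallium or cortex at E17.5, and H3K27me3 was mapped by ChIP-seq in pallium of the same age. The labels number the libraries of each group and do not say whether they are separate embryos, so p-values measure the spread between these libraries.

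In the untreated experiment, 4 control libraries (letter C in the labels) were compared with 3 libraries of the double conditional knockout (dcKO, letter M, numbered 2 to 4). Controls were heterozygous for both floxed alleles and carried the Cre, according to the study's methods, while the genotype label of the deposit reads dcKO_hGFAP-Cre for both letters. In the treatment experiment, 4 libraries of WT embryos given vehicle, 4 of dcKO embryos given vehicle and 4 of dcKO embryos given a Wnt inhibitor were compared. The methods name the inhibitor as ICG-001, injected daily into the pregnant dams, with DMSO as vehicle. There was no WT group with the inhibitor. H3K27me3 was mapped in 4 control (C) and 4 dcKO (K) libraries without treatment.

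Total counts were 11946658 to 28391046 per library in the untreated experiment and 12514443 to 26600594 in the treatment experiment. The floxed genes were checked first. In 6 of the 11 dcKO-labelled RNA libraries, Smarcc1 stood at 49.8% to 52.6% of the control mean and Smarcc2 at 56.8% to 60.0%. In the library labelled dcKO 2 of the untreated experiment, Smarcc1 was at 95.4% and Smarcc2 at 98.3% of the control mean. The libraries labelled dcKO vehicle 2, dcKO Wnt inhibitor 1 and dcKO Wnt inhibitor 2 were likewise at 91.1%, 80.5% and 94.6% for Smarcc1 and at 94.6%, 88.1% and 95.02% for Smarcc2. These 4 libraries went against their labels, and each result is therefore given with all libraries as labelled and without these 4. The limit used, both genes above 75% of the control mean, was chosen after the data were seen. The library labelled dcKO Wnt inhibitor 4 stayed in, with 65.1% for Smarcc1 and 80.1% for Smarcc2.

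The 2 RNA experiments may not be independent of each other. Over 9954 genes, centred within each experiment, same-numbered libraries of control and WT vehicle and of dcKO and dcKO vehicle correlated at 0.297 to 0.825, and 5 of 7 libraries correlated best with their same-numbered partner. Xist and Y-linked genes followed the same pattern in 7 of 7 such pairs. The labels do not say whether these libraries come from the same embryos, so a result seen in both experiments is not independent evidence.

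The sequences that bear on the chromatin results are those just upstream of the INK4 starts, since H3K27me3 peaks lay over them. Each is the 250 bases before a RefSeq start, on GRCm38.p6 and in the direction of transcription. Capitals mark matches to a GC box (CCGCCC), an E-box (CACGTG), an E2F site (TTGGCGC or TTCGCGC) or a TCF/LEF core (ATCAAAG or TTCAAAG), each searched on both strands, where matches may overlap one another. Cdkn1b is shown beside them as a start without a peak in any library, chosen after its values were seen. RefSeq promoter entries matched 7 of the 10 genes, and Ccnd1, Ccnd2 and Cdkn1c are named only.
Cdkn2a p19Arf start: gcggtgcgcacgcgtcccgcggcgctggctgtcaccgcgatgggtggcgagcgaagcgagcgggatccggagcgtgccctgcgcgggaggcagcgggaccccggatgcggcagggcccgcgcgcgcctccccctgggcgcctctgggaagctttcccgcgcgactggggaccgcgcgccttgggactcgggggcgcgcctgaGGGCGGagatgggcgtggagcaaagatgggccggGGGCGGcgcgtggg
Cdkn2a p16Ink4a start: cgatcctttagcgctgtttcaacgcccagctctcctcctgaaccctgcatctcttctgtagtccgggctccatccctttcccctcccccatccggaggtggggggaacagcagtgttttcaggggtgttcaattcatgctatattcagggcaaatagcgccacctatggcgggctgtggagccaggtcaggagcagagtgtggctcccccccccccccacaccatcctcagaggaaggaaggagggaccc
Cdkn2b: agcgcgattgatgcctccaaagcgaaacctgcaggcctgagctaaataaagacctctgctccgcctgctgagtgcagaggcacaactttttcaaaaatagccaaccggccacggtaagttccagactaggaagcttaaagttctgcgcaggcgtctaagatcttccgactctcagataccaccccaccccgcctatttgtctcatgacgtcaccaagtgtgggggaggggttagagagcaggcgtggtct
Cdkn2c upstream start: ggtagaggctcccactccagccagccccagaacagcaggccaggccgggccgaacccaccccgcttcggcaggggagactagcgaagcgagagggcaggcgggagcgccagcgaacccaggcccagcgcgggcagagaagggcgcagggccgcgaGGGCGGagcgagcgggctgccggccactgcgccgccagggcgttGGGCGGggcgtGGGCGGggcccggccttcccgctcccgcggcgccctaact
Cdkn1b: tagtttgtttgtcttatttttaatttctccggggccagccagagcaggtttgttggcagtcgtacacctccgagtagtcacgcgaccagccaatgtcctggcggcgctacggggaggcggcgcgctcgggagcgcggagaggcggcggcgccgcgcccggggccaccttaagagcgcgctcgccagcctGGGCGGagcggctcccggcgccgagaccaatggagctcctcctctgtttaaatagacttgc

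The stretches lie at chr4:89294620-89294869 (p19Arf), chr4:89282193-89282442 (p16Ink4a), chr4:89311033-89311282 (Cdkn2b) and chr4:109666757-109667006 (Cdkn2c), all on the minus strand, and at chr6:134920151-134920400 on the plus strand (Cdkn1b). The p16Ink4a stretch lies inside the Cdkn2a gene, downstream of the p19Arf start. The p19Arf stretch was 78.4% G or C with 40 CpG dinucleotides, and the p16Ink4a stretch 60.0% with 7. GC boxes were found 2 times before p19Arf, 3 times before Cdkn2c and 1 time before Cdkn1b, and none of the 4 motifs was found before p16Ink4a or Cdkn2b. Of 32851 promoters of this length, 32.7% held a GC box, 6.02% an E-box, 3.14% an E2F site and 7.48% a TCF/LEF core. A match is a description of these letters and not a binding site.

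Levels of different genes were compared as CPM (counts scaled to the effective library size) per kilobase of exon, over the libraries of one experiment. Cdk4 was the highest, with a median of 93.2 over 7 untreated libraries (range 81.0 to 110.0) and 99.5 over 12 treated ones (88.9 to 118). Ccnd2 followed with medians of 40.5 and 41.5, then Cdkn1b with 38.4 and 34.3, and the ranges of this pair overlapped in both experiments. Cdkn1c came next with 20.7 and 16.97, Ccnd1 with 9.36 and 7.84, and Cdkn2c with 4.25 and 4.78. Cdk4 and Ccnd2 did not overlap in either experiment, nor did Cdkn1c and Ccnd1. Cdkn1b and Cdkn1c, and Ccnd1 and Cdkn2c, overlapped in the treated libraries and not in the untreated ones. Ccnd3 stood at 1.72 and 2.44. Cdk6 stood at 0.678 in the untreated and 3.17 in the treated libraries, so Cdk6 and Ccnd3 changed places between the tables, and their ranges overlapped in the treated one. Cdkn2b (0.245 and 0.272) and Cdkn2a (0.0378 and 0.0816) were at the bottom.

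The pallium thus held Ccnd2 as its main D cyclin transcript and Cdk4 as its main D-cyclin kinase transcript. Ccnd2 made up 73.9% to 81.1% of the summed per-length level of the D cyclins in the untreated libraries and 75.4% to 84.7% in the treated ones. Per length, Cdk4 was 108 to 172 times the level of Cdk6 in the untreated table and 20.0 to 42.0 times in the treated table. The table behind the untreated libraries listed 38355 gene identifiers and that of the treated ones 48709, so levels were compared within a table. Exon lengths were taken from the same GENCODE annotation for both tables, and the exons counted for a gene may differ from it. Group means of Cdk6 were 10.4 CPM in controls and 48.2 CPM in WT vehicle, beside 299 and 318 CPM for Cdk4. The part of the annotation in the Cdk6 ratios and in its order beside Ccnd3 was not tested.

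**Figure D1:**
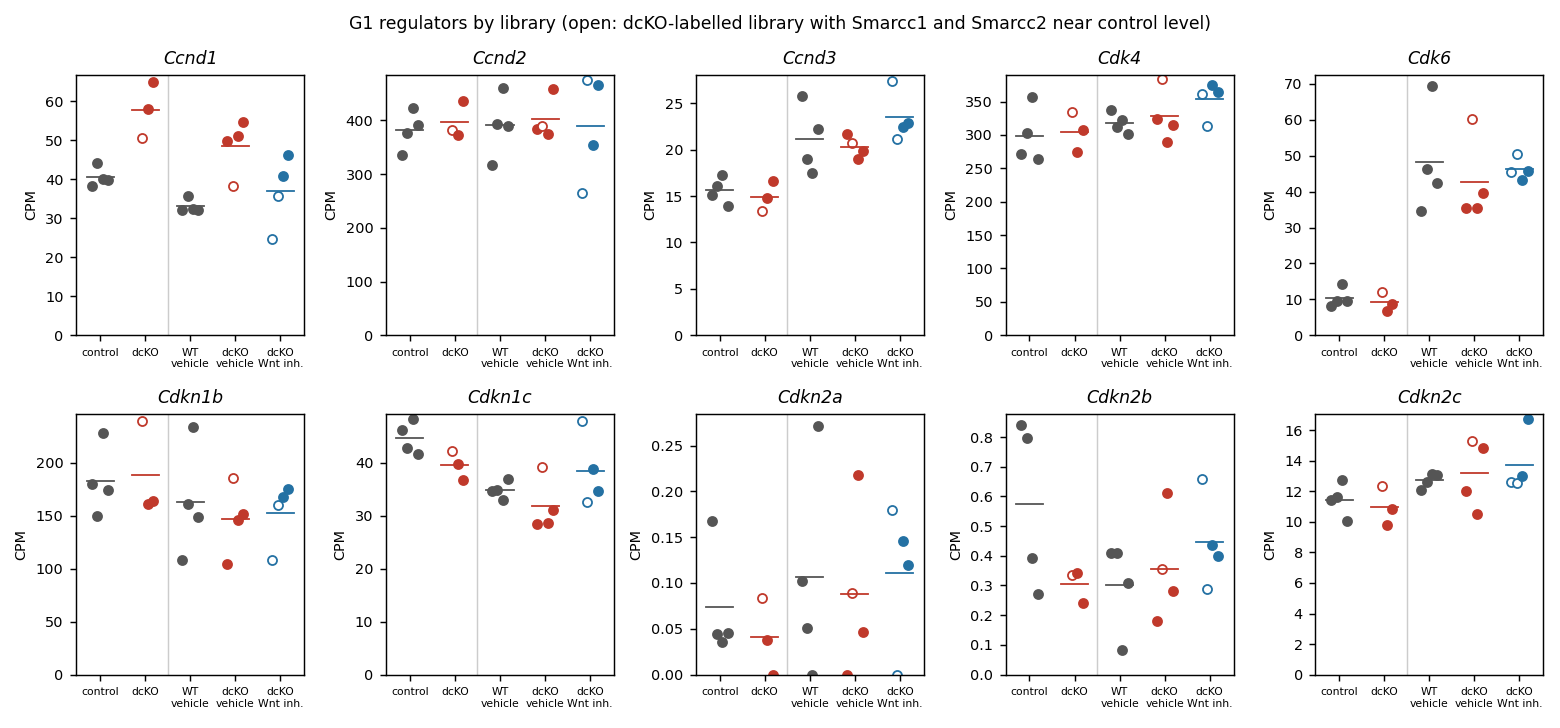
Level of each G1 regulator in CPM (linear axis from 0) in each RNA library, with a line at the group mean. Open circles are the dcKO-labelled libraries with Smarcc1 and Smarcc2 near the control level. Ccnd1 is higher in the dcKO than in the control libraries of both experiments without overlap, and the other genes overlap between these groups when all libraries are taken as labelled.

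Ccnd1, which encodes cyclin D1, had the largest log2 fold change between genotypes of the 8 G1 regulators that passed the filter in both experiments. In the untreated pallium it stood at 38.4, 44.1, 40.1 and 39.7 CPM in control 1 to 4, and at 50.5, 57.9 and 64.8 CPM in dcKO 2, 3 and 4. The 3 dcKO libraries lay above the 4 controls without overlap, a separation in either direction that 13.2% of all 15770 genes tested showed. The library labelled dcKO 2, with Smarcc1 near control level, was the lowest of the 3 and still above each control. The log2 fold change was 0.51 (SE 0.09), 1.43-fold, with an edgeR adjusted p of 0.0929, above the threshold of 0.05. Without the library labelled dcKO 2 it was 0.60 (SE 0.08), 1.51-fold, with an edgeR adjusted p of 9.53e-04, and Ccnd1 rose.

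In the treatment experiment Ccnd1 stood at 32.1, 35.6, 32.3 and 32.2 CPM in WT vehicle 1 to 4 and at 49.9, 38.1, 51.1 and 54.5 CPM in dcKO vehicle 1 to 4. These groups did not overlap either, as was the case for 5.66% of 16372 genes tested. The library labelled dcKO vehicle 2 was nearest to the highest WT library, whereas the other 3 lay at 49.9 or above. The log2 fold change was 0.55 (SE 0.17, edgeR adjusted p = 0.303) with all libraries as labelled. Without the libraries against their labels it was 0.65 (SE 0.09, edgeR adjusted p = 0.0022), and Ccnd1 rose. The difference of the genotype effect between the experiments was 0.05 (SE 0.15, edgeR adjusted p = 1.0), with 0 of 15999 genes (0.0%) called and 87 (0.544%) at an unadjusted p under 0.05. That fit treated the libraries of both experiments as independent, which they may not be, and the fit with same-numbered libraries as pairs is given at the end.

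Under the Wnt inhibitor Ccnd1 stood at 24.6, 35.8, 40.9 and 46.2 CPM in dcKO 1 to 4. Libraries 1 and 2, which went against their labels, had the lowest values of the group, and libraries 3 and 4 lay between the WT vehicle and the 3 dcKO vehicle libraries with low Smarcc1. Against dcKO vehicle the log2 difference was -0.39 (SE 0.16, edgeR adjusted p = 0.280), and -0.25 (SE 0.11, edgeR adjusted p = 0.263) without the libraries against their labels. Against WT vehicle it was 0.16 (SE 0.17, edgeR adjusted p = 0.612) and, without those libraries, 0.40 (SE 0.10, edgeR adjusted p = 0.0429). The groups overlapped in both comparisons with all libraries as labelled, where 8.51% and 7.49% of genes did not. A fall of Ccnd1 under the inhibitor was thus not called, and inhibitor libraries 3 and 4 lay above WT vehicle and below dcKO vehicle libraries 1, 3 and 4. Without the libraries against their labels 28.2% of genes separated inhibitor from WT vehicle and 47.7% from dcKO vehicle. Both comparisons share samples with that of dcKO vehicle and WT vehicle, so they are not separate evidence.

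**Figure D2:**
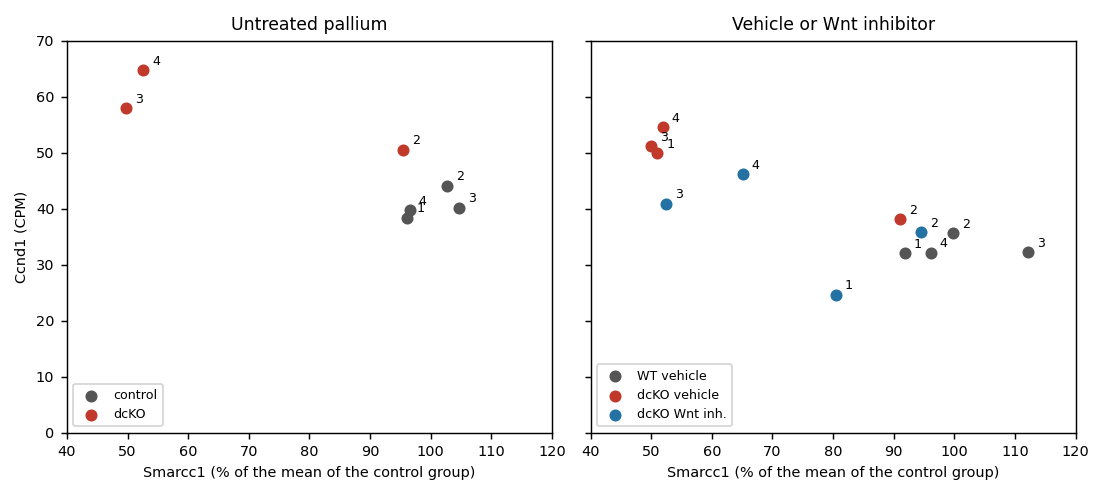
Ccnd1 in CPM against Smarcc1 as a percentage of the mean of the control group (control or WT vehicle), each point a library with its number, for the untreated (left) and the treatment experiment (right). Libraries with Smarcc1 near 50% have Ccnd1 from 40.9 to 64.8 CPM, and dcKO-labelled libraries with Smarcc1 from 80.5% up range from 24.6 to 50.5 CPM.

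Ccnd2, the D cyclin with the highest level per length, stood at 335, 377, 423 and 391 CPM in the controls and at 381, 373 and 436 CPM in dcKO 2, 3 and 4. In the treatment experiment it ranged from 318 to 461 CPM in WT vehicle, 375 to 458 in dcKO vehicle and 264 to 475 in dcKO with the inhibitor. The groups overlapped throughout, and the log2 differences of the genotype were 0.06 (SE 0.09) and 0.04 (SE 0.17). Ccnd3, the third D cyclin, ranged from 13.96 to 17.3 CPM in controls and 13.3 to 16.6 in dcKO, with log2 differences of -0.06 (SE 0.11) untreated and -0.06 (SE 0.13) with vehicle. Neither gene was called in any comparison.

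The make-up of the D cyclins was described by the share of Ccnd1, and a difference in this share was not tested. Ccnd1 was 15.4% to 18.3% of the summed per-length level of the D cyclins in controls and 20.3% to 22.9% in dcKO. The share was 11.8% to 15.7% in WT vehicle, 15.6% in the library labelled dcKO vehicle 2 and 18.5% to 20.5% in the other dcKO vehicle libraries. With the inhibitor it was 12.6% and 14.4% in the libraries against their labels and 15.8% and 17.7% in the others. The shares of control and dcKO did not overlap, where 13.2% of all genes separated these groups by their level. Those of WT vehicle and dcKO vehicle overlapped in the library labelled dcKO vehicle 2.

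Of the kinases, Cdk4 stood at 271, 303, 357 and 263 CPM in controls and 334, 274 and 307 CPM in dcKO 2, 3 and 4, a log2 difference of 0.03 (SE 0.11). With vehicle it ranged from 301 to 338 CPM in WT and 289 to 384 CPM in dcKO, a log2 difference of 0.04 (SE 0.10). Values of Cdk4 with the inhibitor were 361, 314, 375 and 364 CPM. Inhibitor libraries 3 and 4 lay above the 4 WT and the 3 dcKO vehicle libraries with reduced Smarcc1, and below the library labelled dcKO vehicle 2. Without the libraries against their labels this was a log2 difference of 0.26 (SE 0.10, edgeR adjusted p = 0.197) against dcKO vehicle. In that setting 47.7% of genes separated inhibitor and dcKO vehicle, and 28.2% separated inhibitor and WT vehicle.

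Cdk6, the other kinase partner, stood at 8.24, 9.57, 14.2 and 9.49 CPM in controls and 12.2, 6.85 and 8.56 CPM in dcKO 2, 3 and 4. Its log2 difference was -0.20 (SE 0.24), and -0.44 (SE 0.21, edgeR adjusted p = 0.232) without the library labelled dcKO 2. With vehicle it ranged from 34.6 to 69.5 CPM in WT and from 35.4 to 60.1 CPM in dcKO. The highest dcKO vehicle value belonged to the library labelled dcKO vehicle 2, and the difference was -0.17 (SE 0.20), or -0.38 (SE 0.20, edgeR adjusted p = 0.383) without the libraries against their labels. Cdk6 was not called in any comparison.

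Cdkn1c, the Cip/Kip inhibitor p57Kip2, had lower values in the untreated and vehicle dcKO libraries with reduced Smarcc1 but was not called. It stood at 46.2, 42.8, 48.2 and 41.6 CPM in controls and at 42.1, 39.7 and 36.8 CPM in dcKO 2, 3 and 4. The library labelled dcKO 2 overlapped the controls and the other 2 lay below them, where 37.3% of genes separated the groups without it. The log2 difference was -0.18 (SE 0.08, edgeR adjusted p = 0.302), and -0.23 (SE 0.08, edgeR adjusted p = 0.110) without that library. With vehicle, Cdkn1c stood at 34.6, 34.9, 32.9 and 36.9 CPM in WT and 28.4, 39.2, 28.6 and 31 CPM in dcKO. The library labelled dcKO vehicle 2 had the highest value of both groups and the other 3 lay below WT, where 18.4% of genes separated the groups. The difference was -0.13 (SE 0.13, edgeR adjusted p = 0.896), and -0.25 (SE 0.09, edgeR adjusted p = 0.183) without the libraries against their labels.

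Under the inhibitor Cdkn1c stood at 47.9, 32.6, 38.8 and 34.6 CPM. The highest value was in the library with the highest choroid plexus marker sum, dcKO Wnt inhibitor 1. Against dcKO vehicle the difference was 0.27 (SE 0.13, edgeR adjusted p = 0.341), and 0.32 (SE 0.11, edgeR adjusted p = 0.161) without the libraries against their labels. Over the 19 RNA libraries, centred within each experiment, Cdkn1c and Ccnd1 had a Pearson r of -0.765, a description over libraries that share depth, tissue composition and possibly embryos.

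Cdkn1b, which encodes p27Kip1, a protein known to be set largely by its degradation, stood at 180.0, 150, 228 and 175 CPM in controls and at 240, 161 and 164 CPM in dcKO 2, 3 and 4. Its log2 difference was 0.04 (SE 0.18), and -0.17 (SE 0.14) without the library labelled dcKO 2, so the sign rested on that library. With vehicle it ranged from 108 to 234 CPM in WT and from 104 to 186 CPM in dcKO, a difference of -0.15 (SE 0.23). In WT vehicle the spread was wider for Cdkn1b than for Cdkn1c, with SDs of 52.6 and 1.64 CPM around means of 163 and 34.8 CPM. With the inhibitor the SDs were 30.4 and 6.80 CPM around means of 153 and 38.5 CPM, a similar spread relative to the mean.

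Of the 3 INK4 genes among the 10, Cdkn2c was the only one above the filter in both experiments. Cdkn2d (p19Ink4d), an INK4 gene of the wider pathway list, was higher per length, at a group mean of 16.9 CPM per kb of exon in controls (SD 1.11, n = 4) beside 4.27 for Cdkn2c. Cdkn2c ranged from 10.03 to 12.7 CPM in controls and from 9.81 to 12.3 CPM in dcKO, a log2 difference of -0.07 (SE 0.12). With vehicle it ranged from 12.1 to 13.1 CPM in WT and 10.5 to 15.3 CPM in dcKO, a difference of 0.05 (SE 0.14). With the inhibitor it stood at 12.6, 12.6, 13.02 and 16.7 CPM, and neither difference of that group was called.

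Cdkn2a was at the detection limit. It had 4, 1, 1 and 1 counts in controls and 1, 1 and 0 counts in dcKO 2, 3 and 4. In the treatment experiment it had 2, 1, 0 and 7 counts in WT vehicle, 0, 2, 5 and 1 in dcKO vehicle and 3, 0, 3 and 3 with the inhibitor. A count of 0 allows up to 3 counts, or 0.123 to 0.240 CPM in the 4 libraries at 0, a limit that covers counting error. Reads of p16Ink4a and p19Arf were counted together, since they share exons.

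Cdkn2b had 20, 18, 11 and 6 counts in controls, 4, 9 and 6 in dcKO 2, 3 and 4, and 1 to 14 in the libraries given vehicle. With the inhibitor it had 11, 5, 9 and 10 counts. The summed counts were 55 in the 4 controls and 19 in the 3 dcKO libraries, at group means of 0.575 (SD 0.286, n = 4) and 0.306 (SD 0.0555, n = 3) CPM. Cdkn2b passed the filter in the untreated fit without the library labelled dcKO 2, with a log2 difference of -0.95 (SE 0.53, edgeR adjusted p = 0.292). The difference of the genotype effect between the experiments was 1.08 (SE 0.69, edgeR adjusted p = 1.0) for this gene. A difference between groups was not detectable at this depth in either gene.

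**Figure D3:**
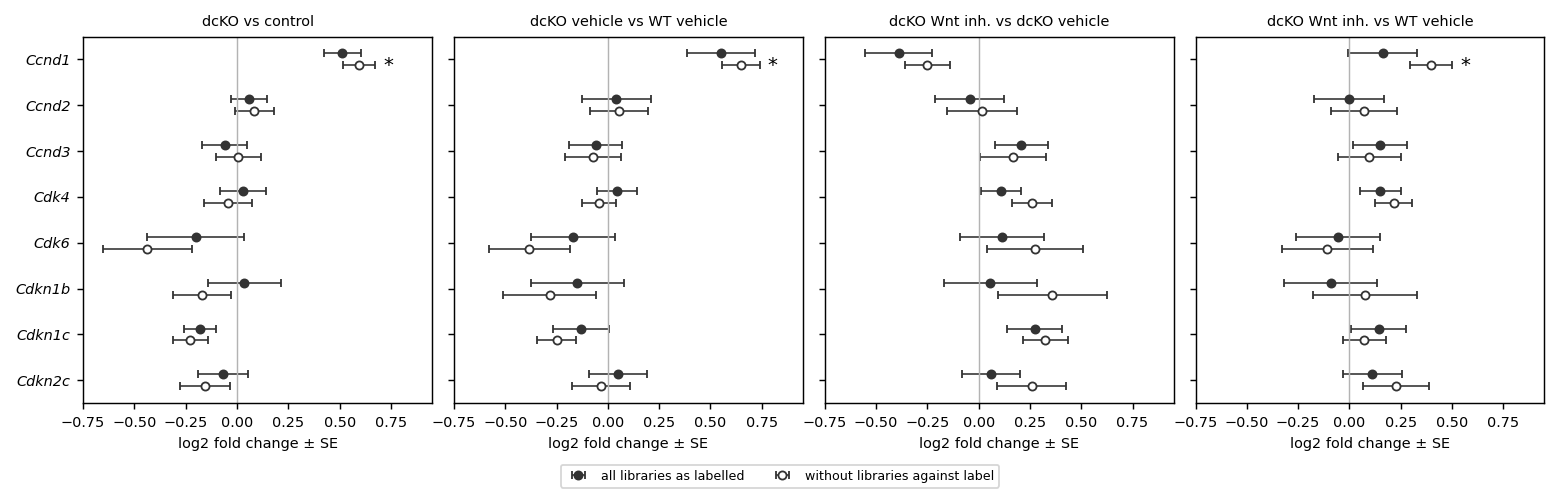
Log2 fold change with its SE from edgeR for the 8 G1 regulators that passed the filter, in 4 comparisons. Filled circles are all libraries as labelled, open circles the fits without the libraries against their labels, and a star marks an adjusted p under 0.05. Stars stand on the open circle of Ccnd1 in 3 of the 4 panels and on no other gene.

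With all libraries as labelled, none of the 8 tested genes was called in any of the 4 comparisons. The share of all genes called was 0.00634% for dcKO against control, 0.00611% for dcKO vehicle against WT vehicle, 0.055% for inhibitor against dcKO vehicle and 0.0977% for inhibitor against WT vehicle. The 1 gene called in the untreated fit was Gm16565 and the 1 gene called between dcKO vehicle and WT vehicle was Prm1, both named after their values were seen. At an unadjusted p under 0.05 there were 2, 1, 1 and 0 of the 8, beside 16%, 9.46%, 15.8% and 19.8% of all genes, and DESeq2 called 1, Ccnd1 in the untreated pallium. Without the libraries against their labels the shares called were 12.4% (5.57% higher, 6.88% lower), 5.82% (2.47% and 3.34%), 1.02% (0.303% and 0.72%) and 7.38% (2.66% and 4.72%) of genes. The G1 regulators called were then 1 of 9, 1 of 8, 0 of 8 and 1 of 8, each time Ccnd1. Their median log2 difference was -0.16 for dcKO against control and -0.06 for dcKO vehicle against WT vehicle, beside medians of -3.9e-04 and -0.0080 over all genes tested.

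The wider pathway list held 26 genes around the restriction point: E and A cyclins, Cdk2, E2F and DP factors, pocket proteins and the CDK-activating kinase. All 26 were tested and 0 were called with all libraries as labelled. Without the library labelled dcKO 2, 2 rose and 2 fell in the untreated pallium, beside 12.4% of all genes called (5.57% higher, 6.88% lower). At an unadjusted p under 0.05 there were 10 of 26, beside 26.6% of all genes.

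Cdc25a, the phosphatase that removes inhibitory phosphates from CDK2, stood at 37.4, 37.4, 38.9 and 37.9 CPM in controls and 39.5, 23.0 and 24.8 CPM in dcKO 2, 3 and 4. The library labelled dcKO 2 was the highest of the 7 and the other 2 were the lowest. The log2 difference without it was -0.66 (SE 0.08, edgeR adjusted p = 4.37e-04). Cdc25a also fell between dcKO vehicle and WT vehicle without the libraries against their labels, by 0.56 on the log2 scale (SE 0.11, edgeR adjusted p = 0.0131).

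Rbl2, the pocket protein p130 of resting cells, fell by 0.27 (SE 0.07, edgeR adjusted p = 0.0261) in the same untreated fit. Cks1b, the cofactor with which SKP2 marks p27Kip1 for degradation, rose by 0.49 (SE 0.13, edgeR adjusted p = 0.0365), and the E2F partner Tfdp2 rose by 0.30 (SE 0.08, edgeR adjusted p = 0.0282). Cks1b was at 12.02 to 16.05 CPM in controls and at 17.9, 17.4 and 20.8 CPM in dcKO 2, 3 and 4, without overlap in all 7 libraries, as for 13.2% of all genes. None of these 3 genes was called between dcKO vehicle and WT vehicle, where their log2 differences without the libraries against their labels were -0.31 (SE 0.10), 0.36 (SE 0.13) and 0.23 (SE 0.14).

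Between inhibitor and WT vehicle, 4 of the 26 genes rose without the libraries against their labels: Cks1b by 0.65 (SE 0.15), and E2f1, E2f2 and E2f6 by 0.44 (SE 0.11), 0.86 (SE 0.17) and 0.41 (SE 0.11). The 3 E2F factors were named after their values were seen. Their edgeR adjusted p were 0.0413, 0.0172 and 0.0467, and that of Cks1b 0.0266. In the same setting their log2 differences between dcKO vehicle and WT vehicle were 0.34 (SE 0.10), 0.49 (SE 0.16) and 0.30 (SE 0.10), with edgeR adjusted p of 0.0810, 0.114 and 0.110. Of all genes, 7.38% were called between inhibitor and WT vehicle and 2.66% were called higher. With all libraries as labelled, each of the 3 E2F factors lay above WT vehicle without overlap, both with the inhibitor and in dcKO vehicle. The libraries against their labels were thus above WT vehicle as well. Such a separation, in either direction, was seen in 7.49% and 5.66% of all genes. In inhibitor libraries 3 and 4 radial glia markers summed to 1771 and 1632 CPM, above the 1311 to 1452 of WT vehicle, and 5 microglia markers to 29.9 and 37.03 CPM, below its 46.9 to 50.3, and the part of either in these values was not tested. Between inhibitor and dcKO vehicle, 0 of 26 were called, with 2 at an unadjusted p under 0.05.

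Markers of cell types moved with some of these groups, and fewer cells of a type and less RNA per cell cannot be told apart in bulk tissue. The summed CPM of 5 cycling-cell markers (Mki67, Top2a, Pcna, Mcm2, Ccnb1) was 348 to 439 in controls and 324 to 425 in dcKO, and that of 8 radial glia markers 1274 to 1373 and 1362 to 1485. Interneuron markers (5 genes) summed to 514 to 601 CPM in controls, 441 in the library labelled dcKO 2, and 673 and 737 in the other dcKO libraries. The same sum was 526 to 636 in WT vehicle, 464 in the library labelled dcKO vehicle 2 and 718 to 780 in the other dcKO vehicle libraries, where Ccnd1 was highest. It was 665, 835, 747 and 854 CPM in dcKO Wnt inhibitor 1 to 4, so the highest sums of that experiment stood beside Ccnd1 values of 35.8 and 46.2 CPM. Intermediate progenitor markers (5 genes) summed to 169 to 262 CPM in controls, 297 in the library labelled dcKO 2, and 137 and 165 in the other dcKO libraries. In the treatment experiment this sum was 162 to 247 in WT vehicle, 276 in the library labelled dcKO vehicle 2 and 143 to 172 in the other dcKO vehicle libraries. Neuron markers (8 genes) were at 8566 to 9439 in controls and 7440 and 7637 in the 2 dcKO libraries with reduced Smarcc1. They were at 7126 to 9720 in WT vehicle and 6508 to 7356 in the dcKO vehicle libraries with reduced Smarcc1, so these groups overlapped. The defining markers of neurons, radial glia and interneurons were detected in each library, and the part of cell composition in the Ccnd1 and Cdkn1c values was not tested.

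Choroid plexus markers (6 genes, Ttr the most abundant) summed to 850, 163, 484 and 12.3 CPM in dcKO Wnt inhibitor 1 to 4, against 6.78 to 130 in WT vehicle and 7.04 to 11.5 in dcKO vehicle. Cdkn1c and Ccnd1 had their highest and lowest value of that experiment in the library with the highest sum. The part of this tissue in the inhibitor values was not tested.

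As a description of which genes varied alike, the 3 genes with the highest Pearson r to Ccnd1 over the 19 RNA libraries (9954 genes, centred within experiment) were Epb41 (0.965), C630043F03Rik (0.962) and Hmcn1 (0.961). Those closest to Ccnd2 were Efnb2 (0.874), Tcf12 (0.873) and Plk4 (0.868), and those closest to Cdkn1c were Pmepa1 (0.888), Frat2 (0.878) and Rhebl1 (0.875). Among the G1 regulators, Ccnd1 correlated with Ccnd2 at 0.491 and with Cdk4 at -0.105.

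H3K27me3 peaks were present at some G1 regulators (marked) and absent at others (unmarked). Gene windows ran from 6712 bp at Cdkn1c to 193524 bp at Cdk6, so counts of libraries with a peak are not on 1 scale. Over all genes, 12392 such windows held a peak in at least 2 libraries, and shares of all windows were not computed. The counts below therefore do not show whether the mark is more or less frequent at these genes than at others. Within the gene and 2000 bp on each side, peaks were found in each of 8 libraries at Cdkn2a and Cdkn2b, in 7 at Cdkn1c and Cdk6, in 6 at Ccnd1, Ccnd2 and Cdkn2c, in 2 at Ccnd3 and in none at Cdk4 and Cdkn1b. As a description of single genes, the unmarked Cdk4 and Cdkn1b were the most abundant kinase and inhibitor of the list by RNA. The most fully covered locus, Cdkn2a and Cdkn2b, was the one with the fewest counts. A relation of mark and RNA level was not tested. The mark was also present at genes with clear RNA, since Ccnd2 and Cdkn1c carried it in 6 and 7 libraries, and bulk tissue does not show whether mark and RNA come from the same cells.

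Libraries differed widely in quality. MACS2 kept 1 tag per position, and 12.3% to 66.5% of tags remained after this step. Control 2, control 4 and dcKO 3 kept 61.5%, 62.2% and 66.5%, dcKO 4 kept 32.8%, and the other 4 libraries kept 12.3% to 18.01%. The covered length ranged from 6.01 Mb in control 3 and 7.08 Mb in dcKO 2 to 58.6 Mb in dcKO 4. Control 3 and dcKO 2 were also the libraries without a peak in the windows of Ccnd1, Ccnd2 and Cdkn2c.

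**Figure D4:**
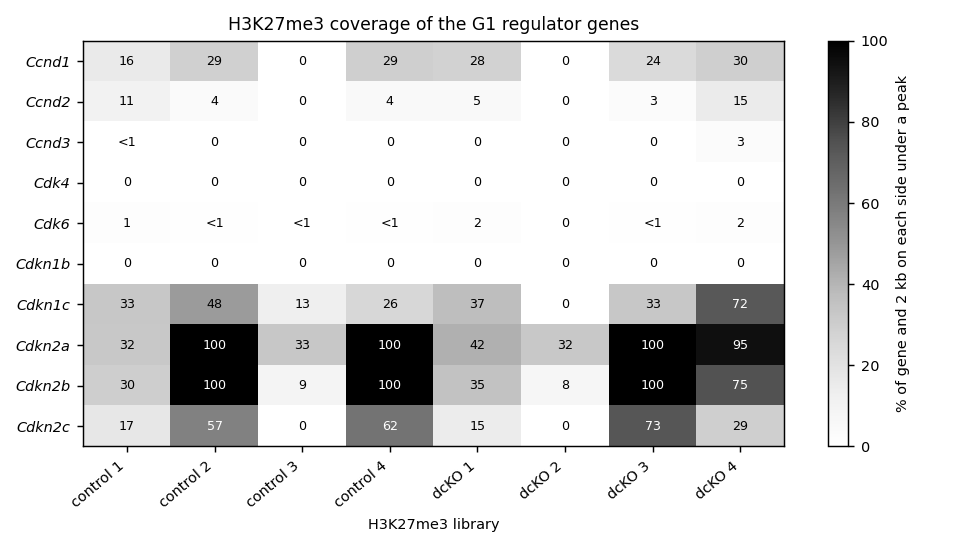
Percentage of each gene and 2 kb on each side that lay under an H3K27me3 peak, by library (controls left, dcKO right), on a grey scale from 0 to 100% with the rounded value printed. Cdkn2a and Cdkn2b are covered in each library, fully in control 2, control 4 and dcKO 3, and Cdk4 and Cdkn1b are at 0 in each.

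At the Cdkn2a and Cdkn2b locus the peaks formed a single domain in the 3 libraries that kept the most tags. It was 49332 bp long in control 2, 50815 bp in control 4 and 49608 bp in dcKO 3, and ran over both genes. In the other 5 libraries the same stretch held 9 to 13 separate peaks that covered 9013 to 37957 bp. The merged region, chr4:89264190-89315131 on mm10 (50942 bp), contains Cdkn2a at 89274471 to 89294653 and Cdkn2b at 89306299 to 89311039.

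Cdkn2a and 2 kb on each side was covered to 32.3%, 100%, 32.9% and 100% in control 1 to 4 and to 41.7%, 32.2%, 100% and 94.6% in dcKO 1 to 4. Group means were 66.3% (SD 38.9, n = 4) and 67.1% (SD 35.1, n = 4). For Cdkn2b the values were 29.8%, 100%, 9.37% and 100% in controls and 35.1%, 7.68%, 100% and 74.8% in dcKO. Full coverage followed the share of tags kept and occurred in both genotypes, and the groups overlapped.

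The highest fold enrichment over the locus was 13.8, 6.13, 7.23 and 5.69 in control 1 to 4 and 14.1, 8.05, 6.20 and 8.35 in dcKO 1 to 4. In control 1 and dcKO 1 this was the peak over the p19Arf start, with 13.8 at chr4:89293939-89295995 and 14.1 at chr4:89294074-89295934. A difference between genotypes was not called at this region, with a log2 difference in fold enrichment of 0.19 (SE 0.54, limma adjusted p = 1.0).

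**Figure D5:**
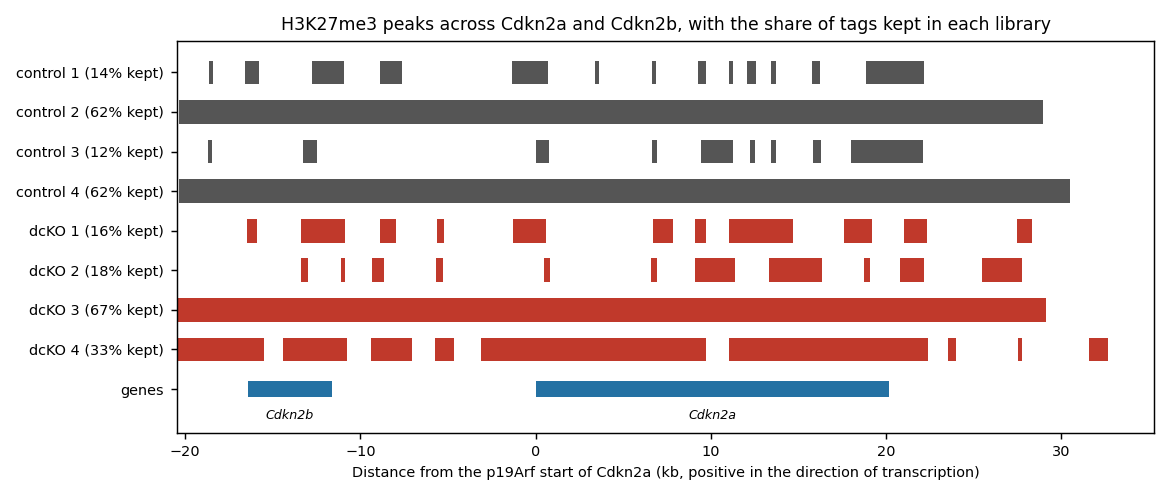
H3K27me3 peaks over the Cdkn2a and Cdkn2b locus by library (controls grey, dcKO red), against the distance from the p19Arf start in kb, positive in the direction of transcription, with the gene bodies in blue. Each label gives the share of tags kept. The 3 libraries that kept the most tags show 1 domain and the others show 9 to 13 peaks.

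Over the 250 bases printed above, a peak lay on the p16Ink4a start in 7 of 8 libraries (4 control, 3 dcKO) and on the p19Arf and Cdkn2b starts in 6 (3 and 3). Of all 32851 promoters of this length, 1.49% held a peak in at least 7 libraries and 4.24% in at least 6. The upstream start of Cdkn2c was covered in 3 libraries and its downstream start in 4, beside 12.4% of promoters covered in at least 2. Cdk6 was covered at its listed start in 4, Cdk4 and Cdkn1b in none.

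Cdkn2c, at chr4:109660876-109667189, was covered to 17.4%, 57.2%, 0% and 62.3% in controls and 14.7%, 0%, 73.1% and 28.98% in dcKO. Its region had the largest log2 difference of the marked genes, 0.59 (SE 0.58, limma adjusted p = 1.0). Its highest peak, with a fold enrichment of 14.6, was in dcKO 4 at chr4:109656433-109659251, beyond the 3' end of the gene. Group means of the coverage were 34.2% (SD 30.4, n = 4) and 29.2% (SD 31.6, n = 4), so enrichment and coverage pointed to different sides.

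Cdkn1c, an imprinted gene at chr7:143458339-143461050, was covered to 33.1%, 48.1%, 12.6% and 26.1% in controls and 36.8%, 0%, 32.9% and 72.3% in dcKO. In each of the 7 libraries with a peak at least 1 peak lay over the gene body, and control 2 and dcKO 4 also had peaks beyond the 3' end and upstream of the start. The fold enrichment reached 11.96 in control 1 and 17.9 in dcKO 1, and the log2 difference of the region was -0.18 (SE 0.69, limma adjusted p = 1.0).

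Ccnd1, at chr7:144929931-144939925 on the minus strand, carried peaks across its start, within chr7:144937793-144944052. It was covered to 15.7%, 28.6%, 0% and 29.1% in controls and 27.9%, 0%, 24.3% and 29.5% in dcKO. The log2 difference was 0.13 (SE 0.87, limma adjusted p = 1.0). No region was called anywhere in this comparison, so the values do not show whether mark and RNA of Ccnd1 moved together. The highest fold enrichment was 9.20, in dcKO 4, beside 5.26 in control 2.

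At Ccnd2 most peaks lay upstream of the start, and coverage was 10.8%, 4.07%, 0% and 4.38% in controls and 4.56%, 0%, 2.76% and 15.1% in dcKO. Cdk6, a long gene, was covered at its 5' end to at most 1.94%. The log2 differences were -0.17 (SE 0.83) and -0.54 (SE 0.74). Of the 22220 merged regions that 2 or more libraries shared, limma called 0 (0.0%), and 49 (0.221%) had an unadjusted p under 0.05. With errors of this size a difference in the mark at these genes was not detectable, which does not show that the genotypes had the same level.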

How the data were processed

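RNA-seq files held counts of reads per gene, which the authors made from reads aligned with STAR to mm10 and counted with featureCounts. The strand setting is not given in the sources used here. The deposited H3K27me3 peak lists came from MACS2 in broad mode with 1 input library per genotype, called for each library separately at a q-value limit of 0.1, and gave the fold enrichment, the -log10 p and q, and the pileup (a coverage signal) of each peak per the file headers. Of these the fold enrichment was the value tested.

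Genes were named from GENCODE, and 5 rows without a gene, with 0 counts, were dropped from the untreated tables. Counts were tested with edgeR 4.0.16 (TMM scaling, filterByExpr, robust quasi-likelihood test, Benjamini-Hochberg adjustment over all genes, threshold 0.05), with the 3 treated groups in 1 fit and the untreated groups in another. SEs were the log2 fold change divided by the square root of F. H3K27me3 peaks of all libraries were merged, a library without a peak was set to 0 on the log2(fold enrichment) scale, and regions with a peak in 2 or more libraries were tested with limma 3.58.1 (trend, robust). DESeq2 1.42.0, R 4.3.3 with the package data.table (version 1.17.8), Python 3.11.15, pandas 2.3.3 and numpy 2.4.6 were also used. All tests were two-sided. The fits were run on simulated data with changes larger than most reported here, which checks the code and not the power for small differences.

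The G1 genes and the lists were chosen with earlier results of these data known. Genes named beyond them were those of the pathway list past the threshold with all libraries or without the library labelled dcKO 2, and the 3 most alike to Ccnd1, Ccnd2 or Cdkn1c among those with a mean CPM of 10 or more. Leaving out the 4 libraries against their labels and the replicate block across the experiments were alternatives chosen after seeing the data. Depth is given with the libraries, and intervals and floors cover counting error only.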

Additional observations from a re-analysis of the deposited data

Results flagged for a closer look

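Within groups of 4 libraries, 75 sets of values were searched for a library far from the other 3 (a gap beyond Dixon's critical value), and chance flags about 1 in 20 such sets. Ccnd1 was flagged in WT vehicle 2, at 35.6 CPM above the other WT libraries. Cdkn2c was flagged in dcKO Wnt inhibitor 4, at 16.7 CPM, the highest of its group. Of the pathway list, Tfdp2 was low in dcKO Wnt inhibitor 1, at 36.4 CPM, and Cks1b was low in the library labelled dcKO vehicle 2, at 13.4 CPM. In that same library Smarcc1 was at 242 CPM and Smarcc2 at 692 CPM, far above the other dcKO vehicle libraries. At Ccnd3, H3K27me3 covered 0.200% of the gene and its flanks in control 1 and 3.17% in dcKO 4, and the other libraries of each group had no peak there. A set with a peak in only 1 library is flagged whatever its value, so the chance rate above does not apply to it.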

How the results depend on the processing

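The counts of called genes depended on single libraries. For dcKO against control (1 gene called), the count was 0 with the replicate block, 154 without a filter on low counts, 553 with DESeq2 and 0 to 1994 when 1 library was left out, with 1994 without the library labelled dcKO 2 and 6 without control 3. G1 regulators called went from 0 to 1, Ccnd1, without the filter, with DESeq2 and without the library labelled dcKO 2, and were 0 to 1 over the left-out libraries. For dcKO vehicle against WT vehicle (1 gene), the count was 0 with DESeq2 size factors, without the filter or with only those groups in the fit, 5 with the block, 118 with DESeq2, 978 without the libraries against their labels (1 G1 regulator) and 0 to 562 with 1 library left out (562 without the library labelled dcKO vehicle 2). For inhibitor against dcKO vehicle (9 genes), it was 20 without the filter, 330 with DESeq2, 172 without the libraries against their labels and 0 to 420 with 1 library left out (420 without dcKO Wnt inhibitor 2, 180.0 without dcKO vehicle 2). For inhibitor against WT vehicle (16 genes), it was 189 with the block, 58 without the filter, 789 with DESeq2, 8 with only those groups, 1241 without the libraries against their labels (1 G1 regulator) and 0 to 1453 with 1 library left out (1453 without dcKO Wnt inhibitor 2, 187 without WT vehicle 1). The cause was not tested.

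Ccnd1 ranged over its alternatives from 0.42 to 0.60 for dcKO against control (edgeR or DESeq2 adjusted p from 3.15e-04 to 0.514), from 0.49 to 0.65 for dcKO vehicle against WT vehicle (0.00221 to 0.8294), from -0.52 to -0.24 for inhibitor against dcKO vehicle (0.136 to 0.609) and from 0.03 to 0.40 for inhibitor against WT vehicle (0.0429 to 0.943). Of 1290 alternative values of single genes and regions, 1266 stayed on their side of the threshold, 24 passed it, and 120 had the other sign, in no case with either value past the threshold or with both beyond their SE. Rbl2 passed it at -0.35 between inhibitor and WT vehicle without dcKO Wnt inhibitor 2 (edgeR adjusted p = 0.0465). The difference between experiments and the H3K27me3 regions had 0 calls under each alternative run, with 17 to 289 regions at an unadjusted p under 0.05.

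Deviations of same-numbered libraries had a mean correlation of -0.270 over 3 untreated pairs, beside 0.0904 over 9 pairs of unlike number. Over 12 treated pairs it was 0.165 (-0.388 to 0.604), beside -0.0503 (-0.575 to 0.494) over 36 pairs of unlike number. Over 4 H3K27me3 pairs it was 0.0802 (-0.323 to 0.579), beside -0.0214 (-0.496 to 0.513) over 12. The ranges overlapped, and the block is given only here, as an alternative. With it across the experiments, 0 genes were called for the difference and 162 had an unadjusted p under 0.05.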
